A study of Mus musculus with 36 samples.

Results

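Kupffer cells are the resident macrophages of the liver, and 10 genes that mark them or macrophages in general were followed across the liver arrays of this study: Clec4f, Cd5l, Vsig4, Timd4, Marco, Csf1r, Cd68, C1qa, C1qb and C1qc. They were found as the non-control probes whose gene name in the array files was one of these symbols, which gave 14 probes of 56605 and 10 genes of 37325. All 10 genes were among the 24251 genes bright enough to be tested, and the probe that stood for each of them was well above background on 36 of 36 arrays. One array was hybridised for each of 36 liver samples from male C57Bl/6J mice, in 6 groups of 6, called mice 1 to 6 of each group after the replicate numbers of the labels. White adipose tissue of AAKO mice had no ATGL, the triglyceride lipase that Pnpla2 encodes, and CTRL mice were the controls. Each genotype was studied fed, after a 24 h fast, or fed and given CL316243, a β3 adrenergic receptor agonist, by gavage at 3 mg/kg in 0.5% carboxymethyl cellulose at ZT 10, where ZT is the time in hours since the lights came on. All mice were killed at ZT 16 under 12 h of light a day, and the labels mention gavage for the CL316243 mice alone, without saying whether the other mice were gavaged with vehicle. The promoter that drives the deletion and the ages of the mice are not given in the sources used here. The labels place both fed groups in experiment 2 and the fasted and CL316243 groups in experiment 1, so in every comparison with fed mice the condition and the experiment cannot be told apart.

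Kupffer cells sit inside the liver sinusoids, where they clear particles, dying red cells and bacteria from portal blood. They arise largely from embryonic precursors, renew themselves in the liver, and depend on signalling through the receptor Csf1r. Clec4f, Vsig4, Timd4, Cd5l and Marco are surface or secreted scavenging proteins that mark the resident cells, with Clec4f the most restricted to them in mice, whereas Csf1r, Cd68 and the C1q genes are shared with other macrophages. C1qa, C1qb and C1qc encode the chains of C1q, the molecule that starts the classical complement cascade and that macrophages, not hepatocytes, mainly supply.

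Values below are log2 levels: the log2 probe signal after subtraction of the array's own 75th percentile, also in log2, so that 0 is the level of that percentile and a difference of 1 is a 2-fold change. Levels of different genes were read by different probes and are not set against each other. Differences, with their standard errors, came from 1 limma fit over all 36 arrays with wash batch as a covariate, and a gene was called at a Benjamini-Hochberg adjusted p under 0.05 over all 24251 genes tested. Each array had 33130 to 37200 probes marked as well above background, and no spot was saturated. Pnpla2 itself, which was deleted in adipose tissue and so does not check the genotype of a liver, ran from 3.54 to 4.03 in CTRL and 2.95 to 3.96 in AAKO livers when fed, from 4.95 to 6.32 and 6.58 to 6.95 when fasted, and from 3.86 to 4.28 and 4.33 to 5.42 after CL316243. Over all genes 2 arrays stood apart from their groups: CTRL fasted mouse 2 lay at 81.3 on the first principal component against 16.8 to 29.0 for the other 5 CTRL fasted mice, and CTRL CL316243 mouse 4 lay at -34.1 on the second against -18.2 to -10.5 for the other 5 mice of its group.

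The probes of 4 members on which the comparisons below most often turned are shown here as the array carries them, since each value is the signal of this one stretch of the transcript. Clec4f and Vsig4 are receptors of resident Kupffer cells. C1qa and C1qb were the only members called between genotypes by the probe that stood for each gene. Positions are those of the array files, and the sequences are as the files print them. The Clec4f probe holds 60 bases while its listed span is 59.
Clec4f (chr6:83595281-83595339, minus strand of mm9): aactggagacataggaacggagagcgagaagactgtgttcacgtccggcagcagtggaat
Vsig4 (chrX:93443157-93443216, minus strand of mm9): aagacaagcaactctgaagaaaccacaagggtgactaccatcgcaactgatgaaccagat
C1qa (chr4:136452409-136452468, minus strand of mm9): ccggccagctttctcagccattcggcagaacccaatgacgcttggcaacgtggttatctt
C1qb (chr4:136436578-136436637, minus strand of mm9): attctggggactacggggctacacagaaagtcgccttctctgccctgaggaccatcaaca

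The 10 markers followed nearly one order across the 6 groups. The highest mean level was that of AAKO fed livers for 10 of 10 members, and CTRL fed livers came next for 8 of them. C1qa and C1qb were the exceptions, with AAKO fasted livers in second place. CTRL mice given CL316243 had the lowest mean for 7 members, CTRL fasted mice for Cd5l and Cd68, and AAKO mice given CL316243 for Marco. Averaged over the 10 members, the log2 level of CTRL livers was 1.98 ± 0.50 (SD, n = 6) fed, 1.28 ± 0.80 fasted and 1.04 ± 0.64 after CL316243. In AAKO livers it was 2.38 ± 0.26 fed, 1.75 ± 0.81 fasted and 1.28 ± 0.25 after CL316243. Neighbours in the order were mostly closer than the spread of the mice: of 50 neighbouring pairs of groups, the gap exceeded the larger of both SDs in 6. Those 6 were the step from AAKO fed to CTRL fed for Clec4f, Csf1r and C1qc, and the step from CTRL fed to AAKO CL316243 for Cd68, C1qa and C1qb.

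**Figure D1:**
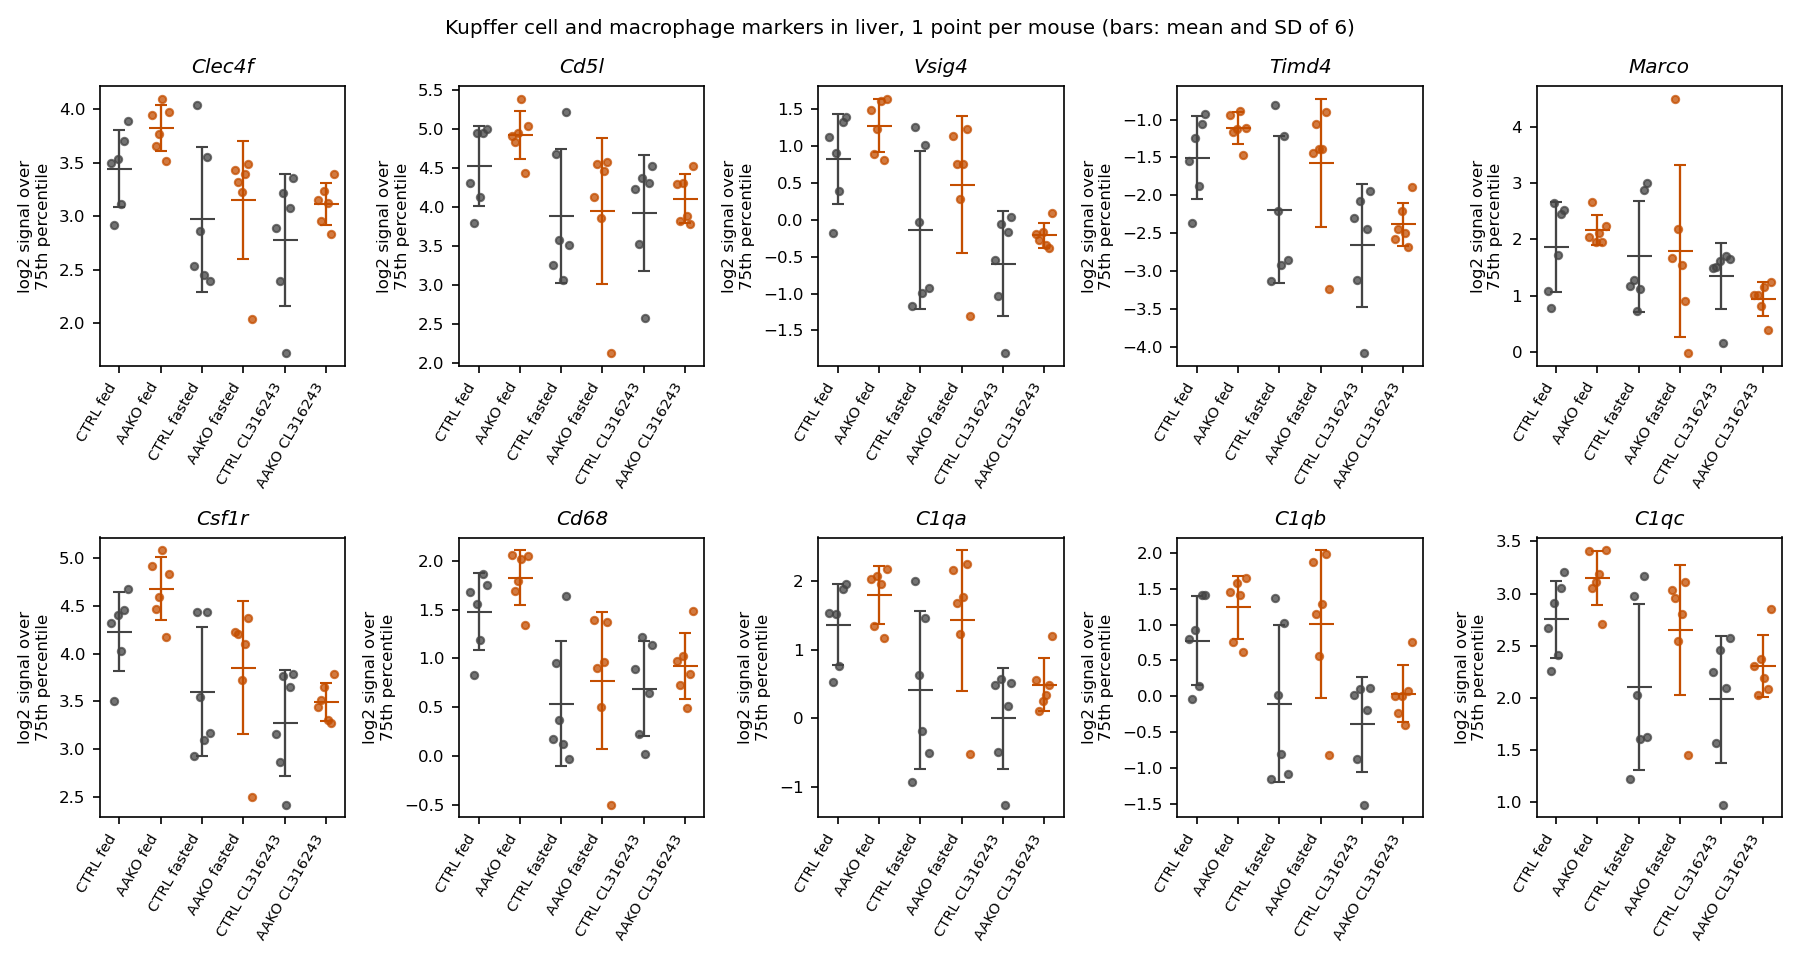
Log2 level relative to the array's 75th percentile (vertical axis) of each of the 10 markers, 1 panel per gene, with 1 point per mouse and 6 mice in each of the 6 groups; the bars give the group mean and SD. AAKO fed livers had the highest mean in 10 of 10 panels, and single low mice such as AAKO fasted mouse 6 stretch the spread of their group.

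CL316243 against fed gave the most marker calls, and all were lower. In CTRL mice 8 of 10 members fell, all but Cd5l and Marco, and in AAKO mice 9 of 10 fell, all but Cd5l. The percentage of all genes called in either direction was 23.3 in CTRL and 31.4 in AAKO, and the percentage called lower was 12.8 and 15.7. Over the 10 members the median log2 difference was -0.87 in CTRL and -1.13 in AAKO, against -0.03 and -0.01 over all genes tested. The groups did not overlap for 5 members in AAKO mice, namely Clec4f, Vsig4, Timd4, Marco and Csf1r, and for none in CTRL mice; 15.1% and 12.3% of all genes were without overlap in AAKO and CTRL. In whole liver, fewer macrophages and less of these RNAs in each macrophage cannot be told apart. The size of the count moved with single arrays. In CTRL mice it was 4 without CTRL fed mouse 3 or 5 or CTRL CL316243 mouse 2, 5 without CTRL fed mouse 6, and 2 (Vsig4 and Csf1r) without CTRL CL316243 mouse 4, one of the arrays that stood apart over all genes. In AAKO mice it was 4 without AAKO fed mouse 3 or 4 or AAKO CL316243 mouse 3, 5 without AAKO fed mouse 6 or AAKO CL316243 mouse 2, and 3 (Vsig4, Timd4 and Csf1r) without AAKO CL316243 mouse 4. Vsig4 and Csf1r stayed called in both genotypes whichever single array of the compared groups was left out. Within wash batches the members' median was -0.99 in batch 1 and -0.80 in batch 2 for CTRL, with 0 and 0 called, and -1.07 and -1.27 for AAKO, with 0 and 3 called.

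After a 24 h fast all 10 members again had a lower mean than in fed livers in both genotypes, but fewer passed the test. Vsig4 and Cd68 fell in CTRL mice, and Clec4f, Cd5l, Csf1r and Cd68 fell in AAKO mice, so Cd68 was the one member called in both. Many genes differed between fasted and fed livers: 43.3% of all genes were called in CTRL and 63.5% in AAKO. Called lower were 22.4% and 35.7%, so the members' 2 and 4 calls of 10 stood near or below those shares. The members' median log2 difference was -0.67 in CTRL and -0.59 in AAKO, against -0.02 and -0.09 over all genes. Fed and fasted AAKO livers were without overlap for Clec4f alone, where 42.6% of all genes were. In CTRL mice none of the members was without overlap, where 22.6% of all genes were. The CTRL count was 1 (Cd68) without CTRL fed mouse 1, 3, 5 or 6 or CTRL fasted mouse 1, 4 or 6, 4 without CTRL fed mouse 2, 8 without CTRL fasted mouse 2 and 9 without CTRL fasted mouse 5. The AAKO count was 2 (Csf1r and Cd68) without AAKO fed mouse 4 and 1 (Cd68) without AAKO fasted mouse 6. Cd68 was called in both genotypes under each of these omissions. Within wash batch 1 the median was -0.26 in CTRL and -0.93 in AAKO, with 0 and 2 called, and within batch 2 it was -1.10 and -0.36, with 7 and 2 called. These comparisons share their fed mice with those for CL316243, so the values stand side by side and do not support each other.

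**Figure D2:**
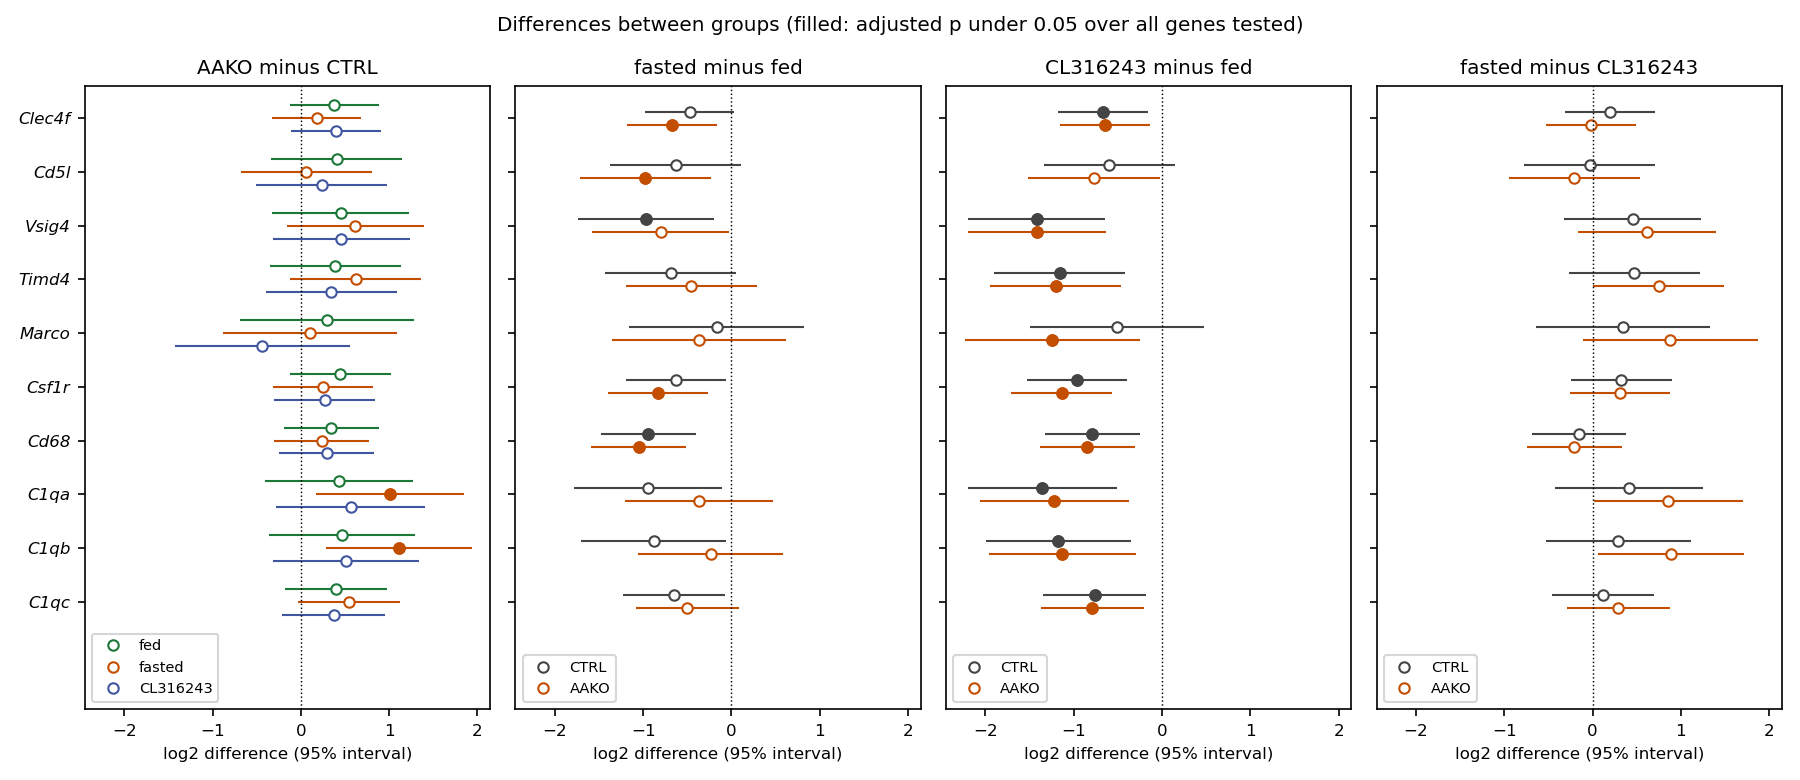
Log2 difference of each of the 10 markers (horizontal axis) with its 95% interval from limma, in 4 panels for the comparisons between genotypes and between conditions; filled points have an adjusted p under 0.05. Each gene is shown by the probe that stood for it. For CL316243 against fed 8 members in CTRL and 9 in AAKO are filled and lie below 0, whereas between genotypes C1qa and C1qb in fasted mice are the only filled points.

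Between genotypes most markers had a higher mean in AAKO livers. By the probe that stood for each gene, C1qa and C1qb alone passed the test, in fasted mice only. The dimmer probe of Csf1r, described below, was higher in AAKO in fasted mice and after CL316243 (limma adjusted p over probes = 0.00136 and 0.0178). The members varied together from mouse to mouse, as described below, so counts of higher members are not separate observations. Of all genes 50.2% were higher in AAKO in fed, 46.0% in fasted and 55.2% in CL316243 mice. Whether the genotype difference itself changed with the condition was tested separately below. In fed mice 10 of 10 members had a higher mean in AAKO, with a median log2 difference of 0.40 against 0.00 over all genes, and 0 were called by limma, with 0 at an unadjusted p under 0.05 and a lowest adjusted p of 0.799 (Csf1r). The percentage of all genes called in fed mice was 0.0783. In fasted mice 10 of 10 were higher in AAKO with a median of 0.40 against -0.04, and C1qa and C1qb were called, where 49.3% of all genes were called and 21.3% were called higher. After CL316243, 9 of 10 were higher in AAKO with a median of 0.36 against 0.03, 0 were called by limma, 0 had an unadjusted p under 0.05, and the percentage of all genes called was 24.7. Marco was the member with a lower mean in AAKO there, at -0.44 ± 0.49. The intervals were wide: in fed mice that of C1qb ran from -0.36 to 1.29 and that of Clec4f from -0.13 to 0.89. The genotype medians were not alike in both wash batches. In fasted mice the members' median was -0.03 in batch 1, with 0 called, and 0.94 in batch 2, with 5 called (Vsig4, Cd68, C1qa, C1qb and C1qc). In fed mice it was 0.64 and 0.16, and after CL316243 0.74 and -0.24, with 0 called in each.

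Fasted and CL316243 livers, which belong to the same experiment, gave no member past the threshold. The median log2 difference, fasted minus CL316243, was 0.31 in CTRL mice and 0.46 in AAKO mice, against 0.01 and -0.08 over all genes. By limma 0 of 10 were called in both genotypes, with 0 at an unadjusted p under 0.05 in CTRL and 3 in AAKO (Timd4, C1qa and C1qb), where 36.8% and 59.9% of all genes were called. The AAKO count was 5 without AAKO fasted mouse 6 (Vsig4, Timd4, Marco, C1qa and C1qb) and 2 without AAKO CL316243 mouse 6 (C1qa and C1qb). The interval of C1qb in AAKO mice was 0.06 to 1.72. Within wash batches the counts were 0 and 1 in CTRL, with medians of 0.79 and -0.25, and 0 and 2 in AAKO, with medians of 0.05 and 0.73. The interactions, which ask whether the genotype difference changed from one condition to another and in which a shift common to both genotypes cancels, gave 0 calls by limma, and 0 members had an unadjusted p under 0.05 in any of the 3. The percentage of all genes called was 33.9 for the fast against fed, 10.9 for CL316243 against fed and 32.3 for the fast against CL316243. The widest interval was that of Marco for CL316243 against fed, -2.14 to 0.66 around -0.74. These counts of 0 depended on a few arrays: without AAKO fasted mouse 6, CTRL CL316243 mouse 4 and CTRL fasted mouse 2, left out together after the values were seen and partly because the members were low there, C1qa and C1qb were called for the fast against fed, and Timd4, C1qa and C1qb for the fast against CL316243. For C1qb with all arrays the genotype difference in fasted minus that in fed mice was 0.65 ± 0.57 (adjusted p = 0.415), with an interval of -0.52 to 1.81.

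Clec4f, a C-type lectin receptor that binds glycans and platelets and is the most Kupffer-restricted of the members, ran from 2.92 to 3.89 (median 3.52) in CTRL fed and 3.52 to 4.10 (median 3.86) in AAKO fed livers. After CL316243 it ran from 1.72 to 3.36 (median 2.98) in CTRL and 2.84 to 3.39 (median 3.14) in AAKO. After the fast it ran from 2.40 to 4.04 (median 2.70) in CTRL and 2.04 to 3.49 (median 3.36) in AAKO. Every AAKO mouse given CL316243 and every fasted AAKO mouse lay below the lowest fed AAKO mouse, whereas in CTRL mice both ranges overlapped the fed range. With CL316243 Clec4f changed by -0.67 ± 0.25 (adjusted p = 0.0491) in CTRL and -0.65 ± 0.25 (adjusted p = 0.0454) in AAKO, a 1.59-fold and 1.57-fold lower level. Both adjusted p-values lay just under the threshold, and the call held in 4 of 12 single-array omissions in CTRL and 2 of 12 in AAKO. With fasting it changed by -0.47 ± 0.25 (adjusted p = 0.128) in CTRL and -0.67 ± 0.25 (adjusted p = 0.0188) in AAKO, the latter called in 10 of 12 omissions, all but those of AAKO fed mouse 4 and AAKO fasted mouse 6.

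Vsig4, a complement receptor of the immunoglobulin family that captures C3b-coated particles, gave the lowest adjusted p of the members in CTRL mice given CL316243. It ran from -0.18 to 1.39 (median 1.01) in CTRL fed and 0.80 to 1.63 (median 1.36) in AAKO fed livers. After CL316243 it ran from -1.81 to 0.03 (median -0.36) in CTRL and -0.38 to 0.09 (median -0.24) in AAKO. After the fast it ran from -1.16 to 1.26 (median -0.48) in CTRL and -1.30 to 1.23 (median 0.75) in AAKO. All 6 AAKO mice given CL316243 lay below the fed AAKO range, and 3 of 6 CTRL mice given it lay below the fed CTRL range. Vsig4 changed by -1.42 ± 0.38 (adjusted p = 0.0063) in CTRL and -1.41 ± 0.38 (adjusted p = 0.00464) in AAKO, a 2.68-fold and 2.67-fold lower level, called in 12 of 12 omissions in each. With fasting it changed by -0.97 ± 0.38 (adjusted p = 0.039) in CTRL and -0.80 ± 0.38 (adjusted p = 0.0661) in AAKO. The fasted CTRL call held in 5 of 12 omissions.

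Timd4, a phosphatidylserine receptor that binds dying cells and marks long-lived resident macrophages, ran from -2.37 to -0.93 (median -1.40) in CTRL fed and -1.47 to -0.88 (median -1.11) in AAKO fed livers. After CL316243 it ran from -4.09 to -1.95 (median -2.37) in CTRL and -2.68 to -1.90 (median -2.47) in AAKO, again below the whole fed range in AAKO alone. In fasted livers it ran from -3.14 to -0.81 (median -2.53) in CTRL and -3.24 to -0.90 (median -1.39) in AAKO, and both overlapped the fed ranges. Timd4 changed with CL316243 by -1.16 ± 0.36 (adjusted p = 0.0192) in CTRL and -1.20 ± 0.36 (adjusted p = 0.0112) in AAKO; the CTRL call was lost in 1 of 12 omissions, that of CTRL CL316243 mouse 4, and the AAKO call in none. The fasting differences, -0.69 ± 0.36 (adjusted p = 0.13) in CTRL and -0.46 ± 0.36 (adjusted p = 0.282) in AAKO, did not pass.

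Cd5l, a secreted scavenger protein that binds lipids and immunoglobulin M, was the member that did not pass with CL316243 in either genotype. It ran from 3.79 to 5.00 (median 4.63) in CTRL fed and 4.43 to 5.39 (median 4.93) in AAKO fed livers. With CL316243 it ran from 2.58 to 4.53 (median 4.27) and 3.78 to 4.53 (median 4.09), and with fasting from 3.07 to 5.23 (median 3.55) and 2.13 to 4.57 (median 4.29), in CTRL and AAKO. All of these ranges overlapped the fed range of the same genotype. The CL316243 differences were -0.60 ± 0.36 (adjusted p = 0.253) in CTRL and -0.77 ± 0.37 (adjusted p = 0.11) in AAKO, with intervals of -1.34 to 0.14 and -1.51 to -0.02, which include falls as large as those called for other members. With fasting it fell in AAKO by 0.98 ± 0.36 (adjusted p = 0.0197, called in 10 of 12 omissions, all but those of AAKO fed mouse 4 and AAKO fasted mouse 6), and the CTRL difference was -0.63 ± 0.36 (adjusted p = 0.166).

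Marco, a class A scavenger receptor that takes up bacteria and particles, varied least like the others. It ran from 0.78 to 2.64 (median 2.09) in CTRL fed and 1.95 to 2.67 (median 2.08) in AAKO fed livers, and from 0.17 to 1.70 (median 1.57) and 0.40 to 1.25 (median 1.02) after CL316243. In fasted livers it ran from 0.74 to 3.00 (median 1.23) in CTRL, a spread close to that of the fed mice, and far more widely, from -0.02 to 4.49 (median 1.61), in AAKO, where mouse 2 was the highest and mouse 6 the lowest of all 36. AAKO mice given CL316243 did not overlap the fed AAKO mice, with a difference of -1.25 ± 0.49 (adjusted p = 0.0496), and the call was lost in 12 of 12 single-array omissions. In CTRL mice given CL316243 the difference was -0.51 ± 0.48 (adjusted p = 0.501). The fasting differences were -0.17 ± 0.48 (adjusted p = 0.813) in CTRL and -0.37 ± 0.48 (adjusted p = 0.529) in AAKO, neither beyond the spread of the mice. Marco had a residual SD of 0.87, the largest of the 10, so its intervals are the widest.

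Csf1r, the receptor through which macrophages receive their survival signal, ran from 3.51 to 4.68 (median 4.36) in CTRL fed and 4.17 to 5.08 (median 4.72) in AAKO fed livers by its brighter probe. With CL316243 it ran from 2.41 to 3.79 (median 3.41) in CTRL and 3.27 to 3.79 (median 3.48) in AAKO, and only the AAKO groups were without overlap. The differences were -0.96 ± 0.28 (adjusted p = 0.0115) in CTRL and -1.14 ± 0.28 (adjusted p = 0.00203) in AAKO, a 1.94-fold and 2.2-fold lower level called in 12 of 12 omissions in each. With fasting Csf1r ran from 2.93 to 4.44 (median 3.35) in CTRL and 2.49 to 4.37 (median 4.15) in AAKO. It changed by -0.63 ± 0.28 (adjusted p = 0.066) in CTRL and -0.83 ± 0.28 (adjusted p = 0.0102) in AAKO, the latter lost in 1 of 12 omissions, that of AAKO fasted mouse 6. The array carries a second Csf1r probe, and it did not follow. Its CL316243 differences were 0.06 ± 0.08 (adjusted p over probes = 0.655) in CTRL and 0.14 ± 0.08 (adjusted p over probes = 0.198) in AAKO. It was higher in AAKO than in CTRL in fasted mice, by 0.33 ± 0.08 (adjusted p over probes = 0.00136), and after CL316243, by 0.27 ± 0.08 (adjusted p over probes = 0.0178), where the brighter probe was not called, at 0.25 and 0.27. The statements on Csf1r therefore hold for one of its 2 probes.

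The ligands of Csf1r are Csf1 and Il34, given here for their role and not for how they moved. Csf1 differed between genotypes by -0.42 ± 0.15, adjusted p = 0.0366 after CL316243 and by -0.39 ± 0.15, adjusted p = 0.0289 in fasted mice. In AAKO mice Csf1 differed by -0.86 ± 0.15, adjusted p = 7.49e-06 with fasting and -0.50 ± 0.15, adjusted p = 0.0108 with CL316243, and in CTRL mice by -0.29 ± 0.15, adjusted p = 0.115 and 0.10 ± 0.15, adjusted p = 0.686. Il34 differed between genotypes by 0.11 ± 0.12, adjusted p = 0.458 in fasted mice and by 0.22 ± 0.12, adjusted p = 0.2 after CL316243. In AAKO mice Il34 differed by -0.26 ± 0.12, adjusted p = 0.0614 with fasting and -0.50 ± 0.12, adjusted p = 0.00188 with CL316243, and in CTRL mice by -0.36 ± 0.12, adjusted p = 0.0162 and -0.70 ± 0.12, adjusted p = 7.16e-05.

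Cd68, a lysosomal glycoprotein of all macrophages, ran from 0.83 to 1.86 (median 1.62) in CTRL fed and 1.34 to 2.06 (median 1.90) in AAKO fed livers. After the fast it ran from -0.03 to 1.63 (median 0.28) in CTRL and -0.50 to 1.39 (median 0.93) in AAKO, with 4 of 6 mice below the fed range in each genotype. After CL316243 it ran from 0.02 to 1.22 (median 0.77) in CTRL and 0.49 to 1.48 (median 0.91) in AAKO, with 3 and 5 of 6 mice below the fed range. With fasting Cd68 changed by -0.94 ± 0.26 (adjusted p = 0.00385) in CTRL and -1.05 ± 0.26 (adjusted p = 0.000777) in AAKO, called in 12 of 12 omissions in each. With CL316243 it changed by -0.79 ± 0.26 (adjusted p = 0.027) in CTRL and -0.84 ± 0.26 (adjusted p = 0.0135) in AAKO, called in 8 and 11 of 12 omissions. It was one of only 2 members with a lower mean in fasted than in CL316243 mice of both genotypes, Cd5l being the other, and neither difference was called. A second Cd68 probe, well above background on 36 of 36 arrays, also passed in all 4 comparisons with fed: in CTRL mice it differed by -1.10 ± 0.33 (adjusted p over probes = 0.00757) with fasting and -1.07 ± 0.33 (adjusted p over probes = 0.0178) with CL316243. The dimmest probe was well above background on 6 of 6 fed arrays of each genotype but on 3 and 5 of 6 fasted and 1 and 2 of 6 CL316243 arrays of CTRL and AAKO mice, so its differences are not given.

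By the probe that stood for each gene, the C1q chains were the members in which a genotype difference passed the test, in fasted livers. C1qa ran from -0.93 to 1.99 (median 0.23) in fasted CTRL and -0.52 to 2.24 (median 1.72) in fasted AAKO livers, and C1qb from -1.15 to 1.38 (median -0.39) and -0.82 to 1.98 (median 1.22). The groups overlapped for both genes: 2 of 6 fasted AAKO mice lay above the highest fasted CTRL mouse, and AAKO fasted mouse 6 lay at -0.52 for C1qa and -0.82 for C1qb, within the CTRL range. The AAKO minus CTRL difference was 1.01 ± 0.41 (adjusted p = 0.0418) for C1qa and 1.11 ± 0.40 (adjusted p = 0.0223) for C1qb, a 2.01-fold and 2.16-fold higher level. C1qc, measured by 1 of its 2 probes because the other was above background on 0 arrays, was higher by 0.55 ± 0.28 (adjusted p = 0.112) and did not pass. The calls rested on few arrays. C1qa stayed called in 4 of 12 omissions, with values of 0.68 to 1.36, and C1qb in 7 of 12, with 0.85 to 1.44. Neither was called without CTRL fasted mouse 1, 4 or 6 or AAKO fasted mouse 1 or 5, and C1qb alone without AAKO fasted mouse 2, 3 or 4. The number of members called was 4 without CTRL fasted mouse 2 and 5 without CTRL fasted mouse 5 or AAKO fasted mouse 6, and 7 without CTRL fasted mouse 2, AAKO fasted mouse 6 and CTRL CL316243 mouse 4 together. In wash batch 1 the difference was 0.26 for C1qa (adjusted p = 0.758) and 0.31 for C1qb (adjusted p = 0.698), and in wash batch 2 it was 1.75 (adjusted p = 0.0199) and 1.91 (adjusted p = 0.0104), all by limma. Fitted on the fasted groups alone, neither passed, with limma adjusted p of 0.175 and 0.123.

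Across conditions the C1q chains fell with CL316243 in both genotypes. In fed livers C1qa ran from 0.52 to 1.95 (median 1.52) in CTRL and 1.17 to 2.17 (median 1.99) in AAKO, and after CL316243 from -1.25 to 0.57 (median 0.34) and 0.11 to 1.20 (median 0.41). In each genotype 5 of 6 mice given CL316243 lay below the fed range. The differences were -1.35 ± 0.41 (adjusted p = 0.0158) in CTRL and -1.22 ± 0.41 (adjusted p = 0.0234) in AAKO for C1qa. They were -1.17 ± 0.40 (adjusted p = 0.033) and -1.13 ± 0.41 (adjusted p = 0.0328) for C1qb, and -0.76 ± 0.28 (adjusted p = 0.0486) and -0.79 ± 0.28 (adjusted p = 0.0333) for C1qc. The C1qc calls lay near the threshold and held in 3 of 12 omissions in CTRL and 4 of 12 in AAKO, whereas the C1qa calls held in 11 and 8. With fasting none of the chains was called in either genotype. Fasted AAKO livers had C1qa at 1.42 ± 1.02 (SD, n = 6) and C1qb at 1.01 ± 1.03 against 1.79 ± 0.42 and 1.24 ± 0.44 in fed AAKO livers, the differences being -0.36 ± 0.41 (adjusted p = 0.456) and -0.24 ± 0.40 (adjusted p = 0.632). In CTRL mice the fasting differences were -0.94 ± 0.41 (adjusted p = 0.064) and -0.88 ± 0.40 (adjusted p = 0.0781). A measure added after the values were seen, given without a test, was the level relative to the mean of the other members per array. By it C1qb was -0.83 ± 0.45 in fasted AAKO and -1.54 ± 0.42 in fasted CTRL livers. Its means lay between -1.59 and -1.26 in the other 4 groups. The fasted AAKO mice of wash batch 2 (1, 4 and 5) lay at -0.32, -0.75 and -0.28. Those of wash batch 1 (2, 3 and 6) lay at -1.27, -1.23 and -1.10, at or near the means of the other groups.

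Within groups the markers rose and fell together from mouse to mouse. AAKO fasted mouse 6, CTRL CL316243 mouse 4, CTRL fed mouse 2 and AAKO fed mouse 5 were the lowest of their group in 10 of 10 members, and AAKO CL316243 mouse 6 was the highest in 10 of 10. AAKO fasted mouse 5 was highest in 8 members. In CTRL fasted livers mouse 2 was highest in 5 members and mouse 5 in 4. The residual SD of the members was 0.44 (Clec4f) to 0.87 (Marco), at the 83.4 to 98.7 percentile of all genes tested, whose median was 0.24. Group means accounted for 20.5% of the variance for Marco to 50.2% for Cd68.

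**Figure D3:**
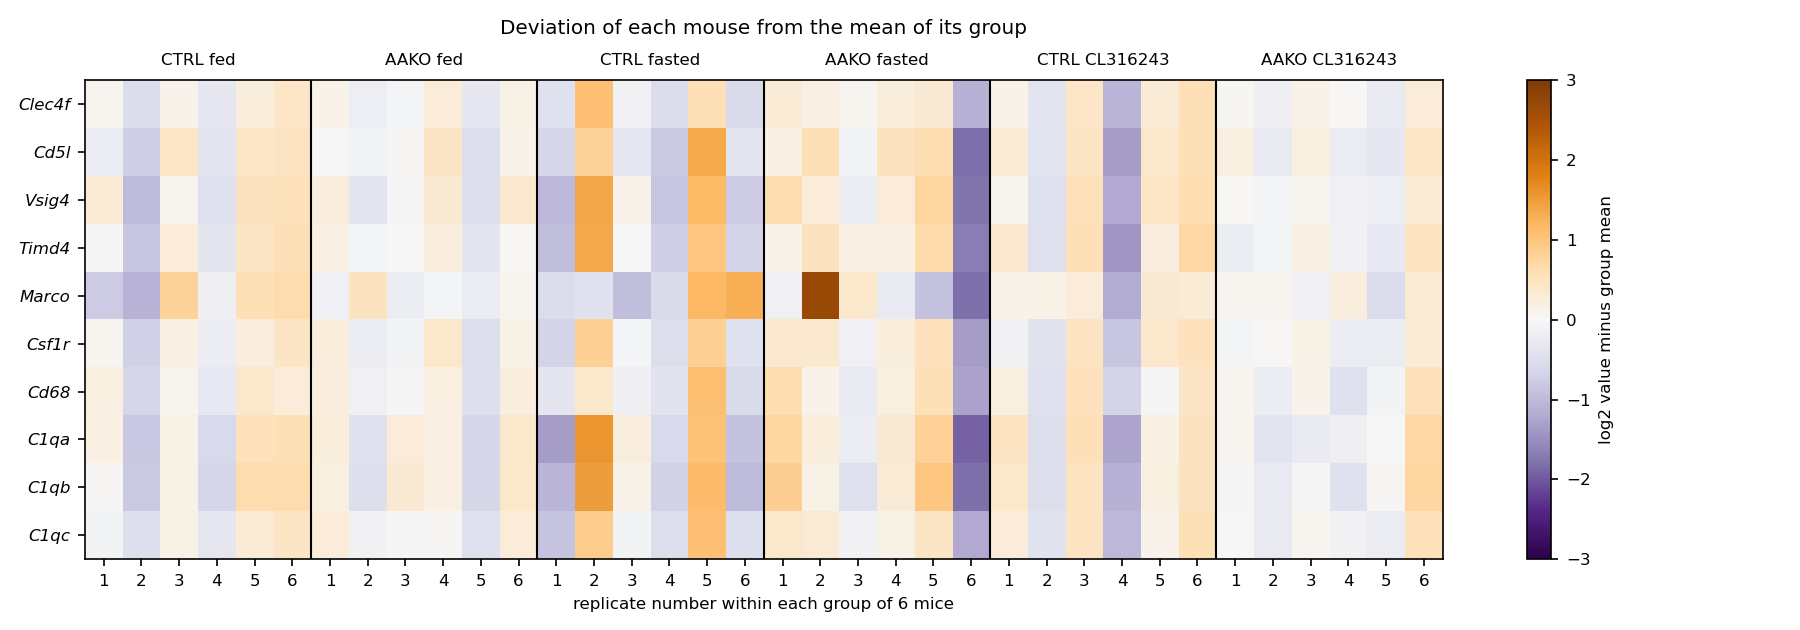
Heat map of log2 level minus the group mean for the 10 markers (rows) in the 36 mice (columns, ordered by group and mouse number), with the colour scale in log2 units. Whole columns share a colour, as in AAKO fasted mouse 6 and CTRL CL316243 mouse 4, which were lowest of their group in 10 of 10 members, and the Marco row departs from the rest in several mice.

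Correlations were computed on the deviations from the mean of each group and wash batch over the 36 mice, for 45 pairs of members as 1 family. The 36 pairs without Marco had Pearson r of 0.87 to 0.98 and Spearman rho of 0.82 to 0.97. By 100000 permutations within group and wash batch, which can give no p below 1e-05, the largest Benjamini-Hochberg adjusted p of these pairs was 2.5e-05 for r and 7.5e-05 for rho. Without the 2 arrays farthest from the median of the first gene of the pair, r was 0.84 to 0.98. Within wash batch 1 it was 0.91 to 0.99 and within batch 2 0.76 to 0.98. C1qa and C1qb were the closest pair, at r = 0.98. The 9 pairs with Marco had r of 0.45 to 0.71, of which 5 passed by the permutation test after adjustment. Their r was 0.23 to 0.62 without the 2 farthest arrays, 0.59 to 0.80 within wash batch 1 and -0.05 to 0.25 within wash batch 2. All members of a pair were read on the same array from the same RNA, so these points share their library.

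The genes outside the set whose deviations were most like the mean standardised deviation of the members over the 36 arrays were Adgre1, which encodes the macrophage surface protein F4/80, at r = 0.99, Cfp, the complement factor properdin, at 0.98, Cd300c2, a myeloid receptor, at 0.98, Folr2, a folate receptor of resident macrophages, at 0.98, and Tyrobp, a signalling adaptor of myeloid receptors, at 0.97. Among all genes Adgre1 ranked 1, ahead of C1qc, the most typical member, at rank 2. Marco ranked 466 with r = 0.63. The mean includes each member itself, which raises the r and rank of members against genes outside the set. Against the mean of the other members, r was 0.98 for C1qc and 0.56 for Marco. These values are descriptions over the same arrays and carry no test.

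Other genes of Kupffer cells and macrophages were read from lists chosen with earlier results of these data known. Their counts are therefore no independent evidence on the members. Of 16 other Kupffer cell genes, 8 fell and 0 rose with CL316243 in CTRL mice, and 8 fell and 1 rose in AAKO mice, with medians of -0.60 and -0.52. Of 19 tested general macrophage genes, 8 and 11 fell and 0 rose, with medians of -0.58 and -0.91. With fasting the general macrophage genes gave 1 higher and 8 lower in CTRL and 1 higher and 11 lower in AAKO, and the other Kupffer cell genes 0 higher and 5 lower and 3 higher and 7 lower. Over all genes 12.8% and 15.7% were called lower with CL316243 in CTRL and AAKO, and 22.4% and 35.7% with fasting. With fasting 43.3% of all genes in CTRL and 63.5% in AAKO were called in either direction, and the fasting totals of both lists, higher and lower calls together, lay near or below those shares. The lower calls alone, 8 and 11 of 19 general macrophage genes, lay above the 22.4% and 35.7% called lower. Those of the other Kupffer cell genes, 5 and 7 of 16, exceeded these shares by less. Between genotypes in fasted mice, 5 other Kupffer cell genes were higher in AAKO and 3 lower, 8 of 16 where 49.3% of all genes were called. Among those higher was Clec1b, a receptor also called CLEC-2 (1.18 ± 0.21, adjusted p = 1.89e-05). After CL316243 the changes of largest size were those of Id3, a transcription regulator needed for Kupffer cells (1.71 ± 0.30, adjusted p = 7.72e-05), and Hpgd, a prostaglandin-degrading enzyme (1.40 ± 0.48 in AAKO and 2.40 ± 0.14 in CTRL, SD, n = 6, limma adjusted p = 5.27e-05), with 2 of 16 higher and 2 lower where 24.7% of all genes were called. Of the general macrophage genes Cd14, a receptor for bacterial lipopolysaccharide, was higher in AAKO in fasted mice (2.77 ± 0.38, adjusted p = 2.99e-07) and after CL316243 (1.12 ± 0.38, adjusted p = 0.0284), and Irf8, a myeloid transcription factor, in fasted mice (1.02 ± 0.19, adjusted p = 3.29e-05). Several of these genes, among them Id3 and Hpgd, are not limited to macrophages in liver.

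Complement genes other than C1q were called in fasted mice about as often as all genes, of which 49.3% were called, 21.3% higher and 28% lower. Of 16 tested, 2 were higher and 7 lower in fasted AAKO than fasted CTRL livers, with a median of -0.31, while C1qa and C1qb were higher. C4b, the complement component C4 that hepatocytes make, was lower (-1.12 ± 0.18, adjusted p = 3.39e-06), and Cd93, a receptor of endothelial and myeloid cells, was higher (1.24 ± 0.21, adjusted p = 1.26e-05). After CL316243 C5ar1, the receptor for C5a, was higher in AAKO (1.03 ± 0.34, adjusted p = 0.0258) and C1s1, a protease that acts with C1q, was lower (-0.22 ± 0.08, adjusted p = 0.0363). Of 9 tested genes of colony-stimulating factor signalling and myeloid factors, 4 were higher and 1 lower in fasted AAKO, among them Cebpb (1.05 ± 0.22, adjusted p = 0.000187), and 0 were higher and 2 lower after CL316243, among them Cebpa (-0.38 ± 0.13, adjusted p = 0.0295); both are transcription factors that hepatocytes also express. Of 14 lysosome and phagosome genes, 4 were higher and 3 lower in fasted AAKO, led by Atp6v0d2 (2.42 ± 0.46, adjusted p = 5.67e-05) and Lipa, lysosomal acid lipase (-1.51 ± 0.10, adjusted p = 1.06e-13). After CL316243 the counts were 2 higher and 3 lower, led by Lipa (-1.22 ± 0.10, adjusted p = 2.61e-10) and Tfec (0.76 ± 0.24, adjusted p = 0.0186). Atp6v0d2 was dim in fasted mice, with means of -3.15 in AAKO and -5.57 in CTRL. C5ar1 was dim after CL316243, at -3.93 in AAKO and -4.87 in CTRL.

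**Figure D4:**
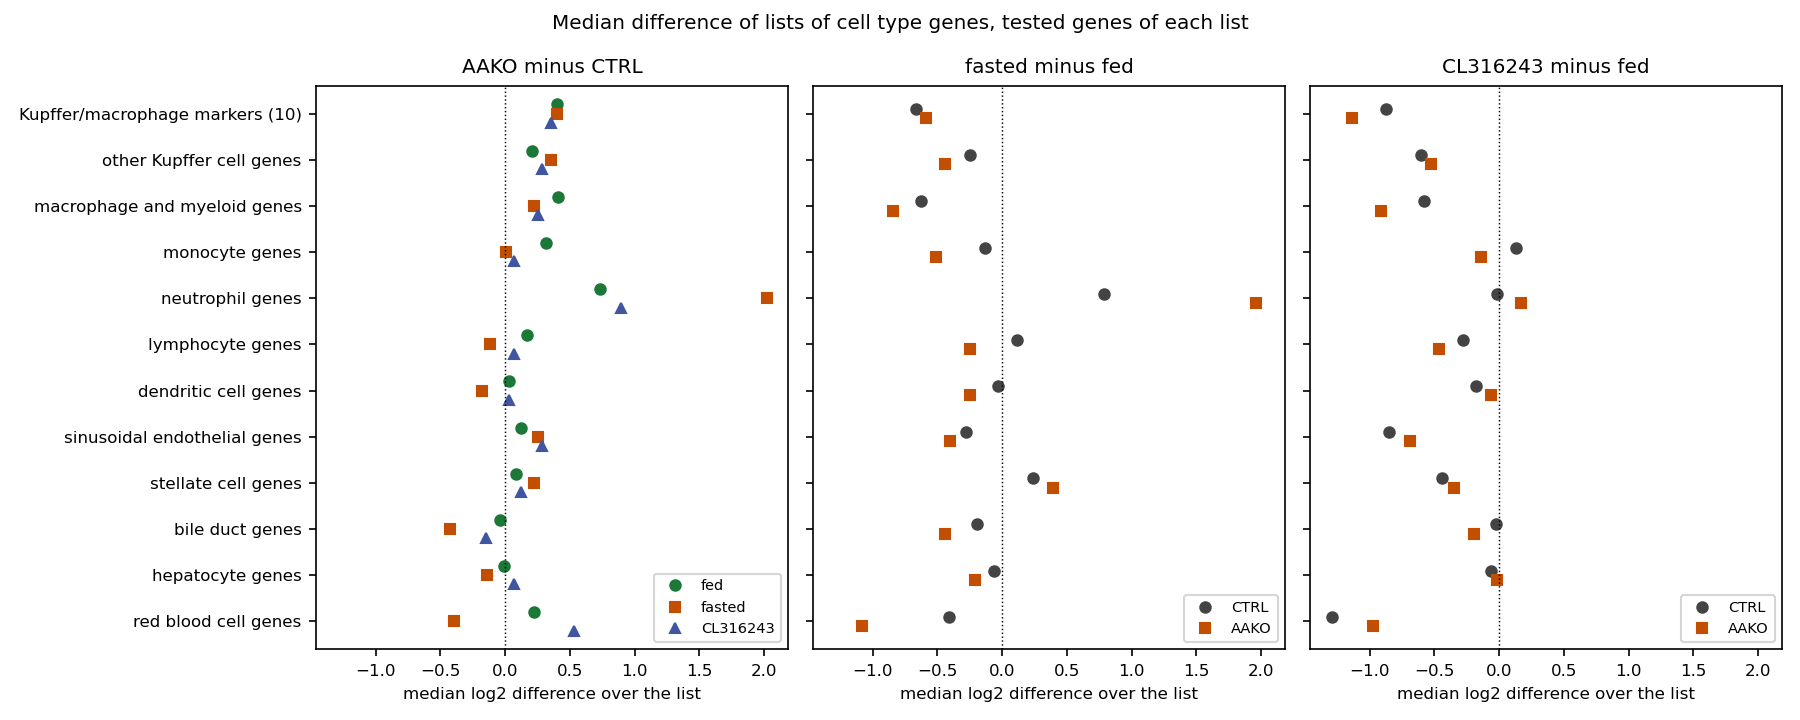
Median log2 difference over the tested genes of each of 12 gene lists (vertical axis, 1 row per list; horizontal axis, log2), in 3 panels for the comparisons between genotypes, fasted against fed and CL316243 against fed. For CL316243 against fed the 10 markers lie at -0.87 in CTRL and -1.13 in AAKO, and the endothelial list at -0.85 and -0.69, while the hepatocyte list lies at -0.07 and -0.02.

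Markers of other cells moved beside the 10 members. Their counts are to be read against the 12.8% and 15.7% of all genes called lower with CL316243 in CTRL and AAKO. With CL316243, 9 of 10 sinusoidal endothelial genes fell in CTRL and 6 in AAKO. Their level summed on the linear scale, in multiples of the 75th percentile signal, was 46.6 to 68.6 in CTRL fed and 23.8 to 44.9 in CTRL CL316243 livers, and 56.4 to 68.5 and 33.8 to 49.9 in AAKO. Such a sum adds the signals of different probes, so it mostly follows the brightest genes of a list. The sum of the 10 members was 44.6 to 100 and 19.8 to 62.2 in CTRL, and 69.9 to 121 and 41.2 to 65.2 in AAKO. Of 6 erythroid genes 4 and 5 fell, with sums of 636 to 962 in CTRL fed and 241 to 666 in CTRL CL316243 livers, and 608 to 1636 and 356 to 930 in AAKO. Of 10 stellate cell genes 6 and 5 fell and 1 (Ngfr, 0.80 ± 0.25, adjusted p = 0.0186) and 0 rose, with sums of 82 to 112 and 48.7 to 82.4 in CTRL, and 83.6 to 105 and 62.3 to 90.1 in AAKO. Of 9 hepatocyte genes 2 and 0 fell. Of 15 genes of recruited monocytes and monocyte-derived macrophages 0 and 1 fell and 1 rose in each genotype. The part of these cells in the members' differences was not tested.

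In fasted mice 21.3% of all genes were called higher in AAKO than in CTRL and 28% lower, and after CL316243 24.7% were called in either direction, shares that several of the counts below do not exceed. Beside the C1q calls, 7 of 12 neutrophil genes were higher and 0 lower in AAKO, with a median of 2.02, led by Retnlg (3.85 ± 1.01, adjusted p = 0.00191) and S100a8 (3.60 ± 1.02, adjusted p = 0.00366). Their summed level ran from 3.65 to 372 in fasted CTRL and 9.07 to 95.2 in fasted AAKO livers, so the ranges overlapped widely. The monocyte genes gave 2 higher and 3 lower, with the chemokine receptors Ccr2 (-1.98 ± 0.32, adjusted p = 5.02e-06) and Cx3cr1 (-1.54 ± 0.36, adjusted p = 0.000536) lower in AAKO. Both receptors were dim, with means of -6.99 and -5.50 in AAKO and -5.01 and -3.96 in CTRL. The C1qc probe that was above background on 0 arrays had a mean of -7.26. The sums of the monocyte genes were 21.2 to 35.3 in fasted CTRL and 23.9 to 49.1 in fasted AAKO livers. The endothelial genes gave 2 higher and 1 lower, with Lyve1 (1.82 ± 0.27, adjusted p = 1.75e-06) and Dnase1l3 (-0.61 ± 0.22, adjusted p = 0.0201), and after CL316243 3 higher and 0 lower, with Lyve1 (1.00 ± 0.28, adjusted p = 0.00742) and Clec4g (0.57 ± 0.21, adjusted p = 0.0388). The stellate genes gave 4 higher and 1 lower in fasted mice, with Ngfr (-1.80 ± 0.25, adjusted p = 4.19e-07) and Reln (0.50 ± 0.15, adjusted p = 0.00734). Hepatocyte genes gave 2 higher and 5 lower in fasted mice, with Hnf4a (0.77 ± 0.11, adjusted p = 4.65e-07) and Asgr1 (-0.68 ± 0.07, adjusted p = 4.24e-10), and 2 higher and 1 lower after CL316243, with Cps1 (0.70 ± 0.12, adjusted p = 5.01e-05) and Hnf4a (0.38 ± 0.11, adjusted p = 0.00891). In fasted mice lymphocyte genes gave 0 higher and 2 lower of 11 (Cd4, -0.66 ± 0.14, adjusted p = 0.000218; Cd3e, -0.25 ± 0.09, adjusted p = 0.0149), dendritic cell genes 0 higher and 2 lower of 7 (Batf3, -0.91 ± 0.27, adjusted p = 0.00469; Zbtb46, -0.73 ± 0.16, adjusted p = 0.000291), cholangiocyte genes 0 higher and 2 lower of 6 (Sox9, -0.90 ± 0.23, adjusted p = 0.00162; Krt19, -0.76 ± 0.17, adjusted p = 0.000452) and erythroid genes 0 higher and 1 lower of 6 (Alas2, -0.39 ± 0.10, adjusted p = 0.00136). After CL316243 Flt3 was higher in AAKO (0.74 ± 0.22, adjusted p = 0.0109) and Sox9 lower (-0.73 ± 0.23, adjusted p = 0.0192). Their part in the C1q differences was not tested.

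The sequence before the start sites of the members was searched for motifs of factors known in macrophages. Whether such motifs bear on how the members varied together was not tested. The table of promoters from RefSeq (GRCm38.p6) held a window for 8 members used here, all but C1qa and Csf1r, and the 250 bases before the start were searched on both strands. GAGGAA, the core that the macrophage factor PU.1 binds, was found in 6 of 8 windows (Marco, Cd5l, C1qb, C1qc, Cd68 and Vsig4) and in 23.3% of 32851 promoters. AGGAAG, which overlaps it by 5 letters, was found in 4 of 8 and 29.5%, and GAGGAAGT, which contains both, in 1 of 8 (C1qc) and 2.44%. TGAGTCA, the AP-1 motif, was found in 1 of 8 (Cd68) and 4.46%, and TGACCT, a motif of nuclear receptors, in 3 of 8 and 14.0%. The 60 bases around each GAGGAA are shown with the motif in capitals, or its reverse complement TTCCTC where it lies on the other strand. A match is a run of letters and not a measured binding site.
C1qb (chr4:136886201-136886260, minus strand of GRCm38.p6): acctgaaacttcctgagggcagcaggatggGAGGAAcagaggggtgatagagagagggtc
C1qc (chr4:136893075-136893134, minus strand of GRCm38.p6): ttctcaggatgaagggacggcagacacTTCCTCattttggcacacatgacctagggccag
Cd5l (chr3:87357788-87357847, plus strand of GRCm38.p6): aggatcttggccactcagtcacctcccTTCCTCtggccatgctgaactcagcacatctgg
Cd68 (chr11:69666361-69666420, minus strand of GRCm38.p6): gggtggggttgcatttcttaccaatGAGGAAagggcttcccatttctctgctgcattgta
Marco (chr1:120505138-120505197, minus strand of GRCm38.p6): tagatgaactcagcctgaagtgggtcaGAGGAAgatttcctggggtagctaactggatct
Vsig4, nearer match (chrX:96293459-96293518, minus strand of GRCm38.p6): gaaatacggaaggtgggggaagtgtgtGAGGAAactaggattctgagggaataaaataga
Vsig4, farther match (chrX:96293561-96293620, minus strand of GRCm38.p6): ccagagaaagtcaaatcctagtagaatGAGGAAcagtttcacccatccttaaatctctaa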

How the data were processed

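Liver RNA of 36 mice was measured on 1-colour Agilent arrays (design 074809, probe positions in mm9). The authors deposited the scanner output of Agilent Feature Extraction 10.10.1.1, per the submitters' processing notes, whose gProcessedSignal intensity is background-subtracted, per the file headers; they also deposited a table of log2 values for 36898 probes whose normalization between arrays is not given in the sources used here. Each of its 36 columns correlated best with its own array (lowest r = 0.999), and it served as an alternative; its group medians ran from 6.88 to 7.01 log2.

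Control spots and 2701 outlier-marked spots (0.127%) were left out, the log2 75th percentile of each array was subtracted, spots of a probe were averaged, and the probe with the highest mean stood for a gene. Old gene symbols were updated through RefSeq accessions (1535 probes). Genes well above background on at least 5 of 6 arrays of a group were kept: 24251 of 37325. Group means with wash batch (19 and 17 arrays) were fitted in limma 3.58.1 (R 4.3.3) with eBayes; tests are two-sided, p-values are adjusted by Benjamini-Hochberg over all genes tested, and intervals are 95%. The fit was tested on simulated data. The labels name no animal for a sample; samples are taken as separate mice, and p-values measure the spread between these samples. The members and gene lists were chosen with earlier results of these data known. Named beside the members are the 2 called genes of largest change per list and genotype comparison, the 5 genes of highest likeness, Pnpla2 and, by role, Csf1 and Il34. Alternatives were normexp (offset 50), quantile and median scaling, the authors' table, 2 other filters, slide or no wash term, each wash batch, the contrast's groups alone, a replicate block, the mean over probes and leaving out each array and, added after the values were seen, 3 arrays together. Figures and correlations used Python 3.11.15. No sequence of Csf1r is shown, and 1 gene of the lists that the rule would name and 1 motif searched are not reported here.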

Additional observations from a re-analysis of the deposited data

Results flagged for a closer look

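Of 60 groups of 6 mice, 10 members in 6 groups, 7 held a mouse whose gap to the nearest of its group was beyond the 95% critical value for the group's range; chance gives about 1 in 20. In 6 of the 7 it was AAKO fasted mouse 6, which lay below the other 5 mice. Its log2 level was 2.04 for Clec4f (next lowest 3.23), 2.13 for Cd5l (3.86), -3.24 for Timd4 (-1.44), 2.49 for Csf1r (3.72), -0.52 for C1qa (1.23) and 1.45 for C1qc (2.54). The remaining one was CTRL CL316243 mouse 4 for Marco, at 0.17 (next lowest 1.49). Both mice were the lowest of their group for all 10 members, so the 6 values of AAKO fasted mouse 6 are not 6 separate observations.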

How the results depend on the processing

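The counts of called members that moved by more than 1.5 times are given as main value, then alternatives. AAKO against CTRL in fasted mice (2): 1 without the filter on dim probes, 1 without the wash term, 1 with slide as a fixed factor, 0 with only the groups of the contrast, 0 in wash batch 1 and 5 in wash batch 2. Fasted against fed in CTRL (2): 5 scaled on the array median, 5 with slide fixed, 1 without the filter, 1 with only those groups, 0 and 7 in wash batches 1 and 2. Fasted against fed in AAKO (4): 2 after quantile normalization and 2 in each wash batch. CL316243 against fed in CTRL (8): 5 without the filter and 0 in each wash batch. CL316243 against fed in AAKO (9): 5 without the filter, 5 with slide fixed, 0 and 3 in wash batches 1 and 2. Fasted against CL316243 in AAKO (0): 3 in the authors' value table, 2 after normexp, 1 without the wash term and 2 in wash batch 2. Fasted against CL316243 in CTRL (0): 1 in wash batch 2. The interaction fasted against CL316243 (0) gave 1 in wash batch 2, Cd68 at 1.15 (limma adjusted p = 0.0353), the one reversed value. A single wash batch or contrast holds fewer arrays, and the fit without the filter holds more genes. The cause of these shifts was not tested.

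In 1 alternative chosen after seeing the data, 3 arrays were left out together: AAKO fasted mouse 6 and CTRL CL316243 mouse 4, picked because the members themselves were low there, and CTRL fasted mouse 2, which lay apart over all genes. Because that choice used the members' own values, its counts are no independent evidence. They were 7 for AAKO against CTRL in fasted mice, 9 for fasted against fed in CTRL, 6 for fasted against CL316243 in AAKO, and 2 and 3 for the interactions fasted against fed and fasted against CL316243; the other 7 counts stayed within 1.5 times.

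Leaving out 1 array at a time, the counts ran from 0 to 5 for AAKO against CTRL in fasted mice, 1 to 9 and 1 to 5 for fasted against fed in CTRL and AAKO, 2 to 8 and 3 to 8 for CL316243 against fed in CTRL and AAKO, and 0 to 5 for fasted against CL316243 in AAKO. They stayed 0 for AAKO against CTRL fed and after CL316243, for fasted against CL316243 in CTRL and for the 3 interactions. With the replicate block the count was 6 for CL316243 against fed in CTRL and 7 in AAKO, and no other count of called members changed. Between genotypes, same-numbered mice correlated above 0.1 in 3 of 6 pairs in fed mice, with r of 0.005 to 0.36. The count was 3 of 6 in fasted mice (-0.21 to 0.23) and 0 of 6 after CL316243 (-0.08 to 0.098). In no comparison did all 6 pairs correlate above 0.1. So strict a rule cannot exclude a pairing, and the block is given as an alternative only. Over 1800 values of single members under settings other than single-array omission, 1668 kept their side of the threshold and, if called, their direction, 82 lost the call, 49 gained it and 1 reversed; over 1800 under omission, 1674, 94, 32 and 0. Among them 124 and 113 uncalled values changed sign. Values called with all arrays kept their direction in 375 of 375 and 300 of 300. Signals were well above background for all members, and what limits the precision was not tested.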
